A study of Mus musculus with 48 samples.

Results

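The 7 genes described here, H2-Ab1, H2-Aa, H2-Eb1, Cd74, Ciita, H2-DMa and H2-DMb1, serve class II antigen presentation and were taken by gene symbol from 3 tables of RNA sequencing values of mouse cortex. All 7 had a row in each table, among 54100 genes at P1, P7, P14 and P45, 55401 genes at P21 and 48785 genes in the CT and VPA table. The values are FPKM, the fragments of a gene scaled to its length and to the size of the library, so that levels of different genes can be set side by side. The age series held mG-cKO and Ctrl cortex, with 3 libraries per group at P1 and P45 and 2 per group at P7 and P14. The P21 table held 3 libraries each labelled mG-cKO-rti (mG-cKO-RTI here), mG-cKO-ctrl (mG-cKO), mG-cKD-rti (mG-cKD-RTI), mG-cKD-ctrl (mG-cKD) and Ctrl, and the last table held 3 VPA and 3 CT libraries at P1. The sample titles call mG-cKO MT or M, mG-cKD Het, and Ctrl WT or W. The meaning of mG, RTI and VPA, and any dose or timing, is not given in the labels, which also do not name the altered gene, the strain or how the alteration was driven, so loss of the targeted gene was not checked. Whether the libraries of a group are separate animals is not stated, and p-values cover only the spread between libraries.

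Class II molecules are surface proteins made of an alpha and a beta chain that show peptides to CD4 T cells. The chains are assembled with the invariant chain, Cd74, which fills the peptide groove until the chaperone H2-DM exchanges its last fragment for a peptide. Transcription of these genes depends on the coactivator Ciita, which interferon gamma induces in many cell types. In healthy brain the genes are used mainly by dendritic cells and macrophages at the borders, and by few microglia, while reactive microglia are known to take them up.

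Libraries were of 2 kinds. In 21 of 41 libraries the FPKM values stepped in whole reads, which implied 13.54 to 30.94 M reads. In the other 20 the depth is unknown. These are every P21 library, replicate 3 of both genotypes at P1 and P45, and VPA replicate 3. In the age series the FPKM sum was 364520 to 381834 in the replicate 3 libraries, against 238106 to 258920 in the whole-read libraries. Replicates 1 and 2 of both genotypes at P45 stood apart, with at least 19052 genes reaching 1 FPKM, while replicate 3 had 14426 in mG-cKO and 14088 in Ctrl. The transcript Rn7sk was at 18350 to 21130 FPKM in those replicates 1 and 2. In replicate 3 at P45 it was at 72.78 FPKM in mG-cKO and 0.6252 FPKM in Ctrl. The cortical markers Slc17a7, of excitatory neurons, and Gad1, of inhibitory neurons, were at 20.98 FPKM or more and 16.26 FPKM or more in every library of the age series. They were at 439.5 FPKM or more and 62.79 FPKM or more at P21. The CT and VPA table lacks a row for 5314 of the 19733 genes tested in the age series, Slc17a7 and Gad1 among them.

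Of the 7 genes, 5 lie on chromosome 17 of GRCm38 (mm10, GENCODE M21 annotation). H2-DMa spans 34119541 to 34139101 on the plus strand, H2-DMb1 34153072 to 34160230 (plus), H2-Ab1 34257689 to 34269419 (plus), H2-Aa 34282744 to 34287823 (minus) and H2-Eb1 34305867 to 34316674 (plus). Ciita lies on chromosome 16 from 10480059 to 10528418 (plus). Class II promoters are known for an X box, bound by the RFX complex, and a Y box, bound by NF-Y, which together recruit Ciita. A search for GNAACT followed after 10 to 40 bases by ATTGG, on either strand, in the 250 bases before each RefSeq start (GRCm38.p6) found both in H2-Aa, H2-Eb1 and H2-DMb1, with 27, 26 and 27 bases between them, and not in either H2-DMa promoter. The order was matched in 377 of 32851 promoters, 1.15%, while GNAACT alone was in 37.3% and ATTGG alone in 33.8%. The letters were chosen after these promoters had been read, so the matches describe the sequences and are no test. RefSeq promoters were matched for 4 of the 7 genes, and H2-Ab1, Cd74 and Ciita had none. The 250 bases before the start of the alpha chain gene H2-Aa (chr17:34287824-34288073, minus strand) and of the beta chain gene H2-Eb1 (chr17:34305617-34305866, plus strand), both of which rose at P14, show the shared layout, with GNAACT and then ATTGG in capitals.
H2-Aa: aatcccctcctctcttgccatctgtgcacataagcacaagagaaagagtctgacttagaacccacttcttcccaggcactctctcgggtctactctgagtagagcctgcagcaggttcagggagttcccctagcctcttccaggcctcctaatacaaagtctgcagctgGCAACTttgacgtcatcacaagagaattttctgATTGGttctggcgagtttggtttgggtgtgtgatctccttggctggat
H2-Eb1: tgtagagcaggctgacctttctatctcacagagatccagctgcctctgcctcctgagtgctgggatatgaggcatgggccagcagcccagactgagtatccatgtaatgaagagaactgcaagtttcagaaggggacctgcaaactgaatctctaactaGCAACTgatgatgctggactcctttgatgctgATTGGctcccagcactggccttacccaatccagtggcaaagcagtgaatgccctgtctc
The first capitals begin 81 bases before the start of H2-Aa and 91 bases before that of H2-Eb1, and the second 48 and 59 bases before it.

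At P14 the 3 chain genes stood far above Ctrl in mG-cKO cortex. H2-Ab1, the beta chain of the A molecule, measured 15.69 and 17.2 FPKM in mG-cKO cortex, against 0.6165 and 0.3159 FPKM in Ctrl. H2-Aa, its alpha chain, measured 4.103 and 4.24 FPKM in mG-cKO cortex, against 0.2308 and 0.3621 FPKM in Ctrl. H2-Eb1, the beta chain of the E molecule, measured 6.56 and 5.799 FPKM in mG-cKO cortex, against 0.487 and 0.8462 FPKM in Ctrl. Both mG-cKO libraries were above both Ctrl libraries for each chain, and the distance between the genotypes was many times that between libraries of a genotype. The reads behind these values, from FPKM, gene length and implied depth, were about 1016 and 1145 for H2-Ab1 in mG-cKO cortex, against about 32.9 and 25.1 in Ctrl. All tests used limma on log2(FPKM + 1), fitted over all genes of a table with a mean of at least 0.5 FPKM, with Benjamini-Hochberg adjustment and a threshold of 0.05, and differences below are on that scale, which understates the change of low genes. H2-Ab1 rose by 3.58 ± 0.39 (SE; limma, adjusted p = 0.00037), H2-Eb1 by 2.11 ± 0.20 (limma, adjusted p = 9.3e-05) and H2-Aa by 1.998 ± 0.25 (limma, adjusted p = 0.0012). Cd74 measured 4.075 and 3.994 FPKM in mG-cKO cortex, against 2.113 and 1.719 FPKM in Ctrl, groups that did not overlap, but the difference of 0.79 ± 0.22 did not pass (limma, adjusted p = 0.41). Thus 3 of the 7 genes rose at P14 and none fell, where 0.269% of the 19733 genes tested rose and 0.076% fell. Of these, H2-Aa averaged 0.333 FPKM over the Ctrl libraries of the age series. It reached the mean needed for testing only with the mG-cKO libraries, where it is high. The median difference of the 7 genes was 0.79, and that of all genes tested was -0.0058. In bulk cortex, more cells of a type and more RNA per cell cannot be told apart. All 3 genes passed under each alternative and without any 1 of the P14 libraries, although with 2 libraries per group the fit borrows the spread of other ages.

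The remaining 3 genes gave smaller differences at P14. Ciita measured 0.4281 and 0.4652 FPKM in mG-cKO cortex, against 0.5443 and 0.4372 FPKM in Ctrl, with a difference of -0.04 ± 0.28. H2-DMa, the alpha chain of the H2-DM chaperone, measured 7.293 and 7.263 FPKM in mG-cKO cortex, against 6.999 and 6.932 FPKM in Ctrl, with a difference of 0.06 ± 0.40. Its partner H2-DMb1 measured 0.5337 and 0.7013 FPKM in mG-cKO cortex, against 0.356 and 0.5441 FPKM in Ctrl, with a difference of 0.16 ± 0.20, and its reads are uncertain because H2-DMb2 is a close copy. Ciita and H2-DMb1 overlapped between the genotypes, and for H2-DMa both mG-cKO libraries were slightly above both Ctrl libraries. At P14, 23.5% of all genes tested were higher in mG-cKO cortex without overlap. The 95% intervals ran from -0.65 to 0.57 for Ciita, -0.80 to 0.91 for H2-DMa and -0.27 to 0.59 for H2-DMb1, so differences as large as those of the chain genes lie outside them.

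**Figure D1:**
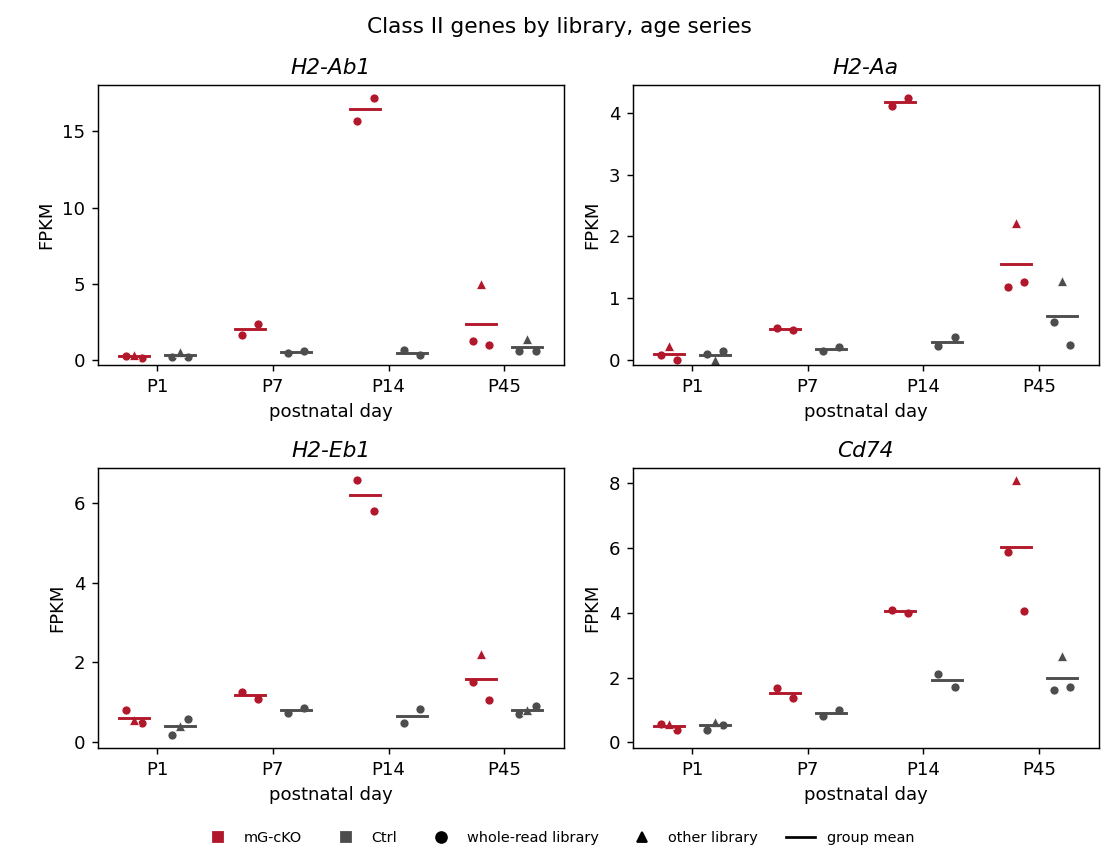
FPKM of H2-Ab1, H2-Aa, H2-Eb1 and Cd74 by postnatal day, with mG-cKO left of Ctrl at each age, 1 point per library and a line at the group mean. Circles are libraries whose values step in whole reads and triangles are the others. The chain genes peak in the 2 mG-cKO libraries at P14 (H2-Ab1 at 15.69 and 17.2 FPKM), while Cd74 reaches its highest values in mG-cKO cortex at P45.

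Before P14 the chain genes were low in both genotypes. At P1, H2-Ab1 measured 0.2576, 0.1305 and 0.3285 FPKM in mG-cKO cortex, against 0.1995, 0.1974 and 0.4923 FPKM in Ctrl. The genotypes overlapped for all 7 genes, whose differences lay between -0.06 and 0.22, and 0 of 7 passed by limma, with 0 at an unadjusted p under 0.05, where 0.127% of all genes rose and 0.0152% fell. At P7, H2-Ab1 measured 1.654 and 2.347 FPKM in mG-cKO cortex, against 0.4493 and 0.6 FPKM in Ctrl. H2-Aa, H2-Eb1 and Cd74 did not overlap either, and every mG-cKO library was the higher, with group means of 0.494, 1.18 and 1.53 FPKM in mG-cKO cortex, against 0.180, 0.805 and 0.915 FPKM in Ctrl. Ciita did not overlap in the other direction, at 0.3732 and 0.3506 FPKM in mG-cKO cortex, against 0.4665 and 0.479 FPKM in Ctrl, with a difference of -0.11 ± 0.28. With 2 libraries per group such separation was common: 20% of all genes tested were higher in mG-cKO cortex without overlap at P7, and 22.4% were lower. The difference of H2-Ab1 was 0.97 ± 0.39, and no member passed at P7 by limma, with 1 at an unadjusted p under 0.05, where 0.157% of all genes rose and 0.00507% fell. With the whole-read libraries fitted alone, H2-Ab1 at P7 did pass. Among the 9 disease-associated microglia markers tested, 1 rose at P7, Gpnmb, a glycoprotein of phagocytes, by 1.51 ± 0.22 (limma, adjusted p = 0.0078). The summed FPKM of all 12 such markers at P7 was 438.1 to 503.0 in mG-cKO cortex, against 366.2 to 395.8 in Ctrl. That of 10 microglia markers was 54.25 to 62.09 in mG-cKO cortex, against 44.53 to 45.64 in Ctrl, and 0 of 10 passed. The sums of B cell, T and NK cell, astrocyte and inhibitory neuron markers and of the peptide processing and costimulation genes were also above Ctrl without overlap at P7. That of monocyte and neutrophil markers was below Ctrl, at 12.57 to 13.53 in mG-cKO cortex, against 14.33 to 14.48 in Ctrl. So was that of the interferon gamma pathway, at 69.33 to 69.83 in mG-cKO cortex, against 70.44 to 72.64 in Ctrl. Border macrophage and dendritic cell sums overlapped, and the part of these cells in the P7 values was not tested.

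The mG-cKO effect was tested between ages. From P1 to P14 it grew by 3.64 ± 0.51 for H2-Ab1 (limma, adjusted p = 0.01), by 1.97 ± 0.33 for H2-Aa (limma, adjusted p = 0.029) and by 1.90 ± 0.26 for H2-Eb1 (limma, adjusted p = 0.0086). These were 3 of 7 genes, where 0.0557% of all genes had a larger effect at P14 and 0.0659% a smaller one. Here too, H2-Aa reached the mean needed for testing only with the mG-cKO libraries. For Cd74 the growth was 0.81 ± 0.29 and did not pass (limma, adjusted p = 1.0). With a pseudocount of 0.1 none of the 3 passed, and with a common median H2-Aa did not. Without P14 Ctrl replicate 1 or either P14 mG-cKO library none passed, without P14 Ctrl replicate 2 only H2-Eb1 did, and without any 1 P1 library H2-Aa did not. From P14 to P45 the effect changed by -2.88 ± 0.51 for H2-Ab1, -1.62 ± 0.26 for H2-Eb1 and -1.40 ± 0.33 for H2-Aa, none of which passed (limma, adjusted p = 0.21, 0.096 and 0.73), where 0.00507% of all genes had a smaller effect at P45. All 3 passed when the whole-read libraries were fitted alone, and H2-Ab1 and H2-Eb1 passed without P45 mG-cKO replicate 3.

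At P45 Cd74, which lies on chromosome 18 from 60803848 to 60812652 on the plus strand, was the member with the largest difference. Cd74 measured 5.881, 4.063 and 8.085 FPKM in mG-cKO cortex, against 1.608, 1.705 and 2.677 FPKM in Ctrl. All 3 mG-cKO libraries were above all Ctrl libraries, and the difference was 1.20 ± 0.18 (limma, adjusted p = 0.0026). H2-Ab1 measured 1.226, 0.9516 and 4.955 FPKM in mG-cKO cortex, against 0.5887, 0.5946 and 1.394 FPKM in Ctrl. The mG-cKO and Ctrl groups of H2-Ab1 overlapped, because Ctrl replicate 3 was above mG-cKO replicates 1 and 2. H2-Aa measured 1.184, 1.26 and 2.21 FPKM in mG-cKO cortex, against 0.605, 0.2444 and 1.283 FPKM in Ctrl, and H2-Eb1 measured 1.517, 1.061 and 2.218 FPKM in mG-cKO cortex, against 0.7182, 0.9188 and 0.819 FPKM in Ctrl. The genotypes overlapped for H2-Aa and not for H2-Eb1, where 4.69% of all genes tested were higher in mG-cKO cortex without overlap. The differences of 0.70 ± 0.32, 0.60 ± 0.21 and 0.49 ± 0.16 for H2-Ab1, H2-Aa and H2-Eb1 did not pass (limma, adjusted p = 0.84, 0.39 and 0.34).

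Cd74 was thus the 1 of 7 genes that rose at P45, where 0.694% of all genes rose and 0.461% fell, and 4 of the 7 were at an unadjusted p under 0.05. In mG-cKO minus Ctrl, Cd74 differed by 1.15 within the whole-read libraries and by 1.31 between the replicate 3 libraries, so the difference was of like size in both kinds. For H2-Ab1 those values were 0.39 and 1.31, for H2-Aa 0.65 and 0.49, and for H2-Eb1 0.33 and 0.82. With the replicate number as a block, 3 genes passed, Cd74, H2-Aa and H2-Ab1, without P45 Ctrl replicate 3 H2-Aa passed beside Cd74, and with the P45 groups fitted alone no member and no gene of the table passed. Ciita split by library and not by genotype, at 1.219, 1.249 and 0.2663 FPKM in mG-cKO cortex, against 1.183, 1.291 and 0.3429 FPKM in Ctrl.

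Ordered by group mean, H2-Ab1 ran from P14 mG-cKO (16.4 ± 1.07 FPKM, SD, n = 2) to P45 mG-cKO (2.38 ± 2.24, n = 3), P7 mG-cKO (2.0 ± 0.49, n = 2), P45 Ctrl (0.859 ± 0.46, n = 3), P7 Ctrl (0.525 ± 0.11, n = 2), P14 Ctrl (0.466 ± 0.21, n = 2), P1 Ctrl (0.296 ± 0.17, n = 3) and P1 mG-cKO (0.239 ± 0.10, n = 3). P14 mG-cKO stood clear of its neighbour in this order, and so did P7 mG-cKO of P45 Ctrl, while every other pair of neighbours overlapped. The place of P45 mG-cKO above P7 mG-cKO rests on replicate 3, a library of the other kind, at 4.955 FPKM. Replicates 1 and 2 of P45 mG-cKO, at 1.226 and 0.9516 FPKM, lie below both P7 mG-cKO libraries, at 1.654 and 2.347 FPKM. Cd74 had another order, led by P45 mG-cKO (6.01 ± 2.01 FPKM, n = 3) and P14 mG-cKO (4.04 ± 0.06, n = 2), which overlapped. P45 Ctrl (1.997 ± 0.59, n = 3) and P14 Ctrl (1.92 ± 0.28, n = 2) came next and overlapped as well, and then P7 mG-cKO (1.53 ± 0.21, n = 2), P7 Ctrl (0.915 ± 0.13, n = 2), P1 Ctrl (0.524 ± 0.12, n = 3) and P1 mG-cKO (0.504 ± 0.11, n = 3). Among these last the P1 genotypes overlapped and the other neighbours did not. Cd74 rose with age in both genotypes: P45 against P1 gave 2.18 ± 0.18 in mG-cKO cortex (limma, adjusted p = 4.6e-07) and 0.96 ± 0.18 in Ctrl (limma, adjusted p = 0.00085). H2-Aa also rose with age in both, by 1.19 ± 0.21 in mG-cKO cortex (limma, adjusted p = 0.00039) and by 0.62 ± 0.21 in Ctrl (limma, adjusted p = 0.03), and in mG-cKO cortex H2-Ab1 rose by 1.26 ± 0.32 and H2-Eb1 by 0.66 ± 0.16 (limma, adjusted p = 0.0072 and 0.0056). That made 4 of 7 genes in mG-cKO cortex, where 16.3% of all genes rose and 17.7% fell, and 2 of 7 in Ctrl, where 17.2% rose and 19.4% fell. Both counts include H2-Aa, which reached the mean needed for testing only with the mG-cKO libraries. In both genotypes P45 replicates 1 and 2 stood apart as libraries, so age and this difference cannot be fully told apart. With the replicate number as a block 6 of 7 passed in mG-cKO cortex and 5 of 7 in Ctrl, and 1 of 7 passed in Ctrl without P45 Ctrl replicate 1 or without any 1 P1 Ctrl library. Over the alternatives the number of all genes called ran from 2814 to 15194 in mG-cKO cortex and from 3353 to 15341 in Ctrl. These member counts are therefore not read as particular to the 7 genes.

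At P21, in separate libraries, the 4 genes were again above Ctrl in mG-cKO cortex, with Cd74 ahead. Cd74 measured 6.803, 10.22 and 9.497 FPKM in mG-cKO cortex, against 2.514, 1.995 and 3.278 FPKM in Ctrl. H2-Ab1 measured 6.377, 7.364 and 7.627 FPKM in mG-cKO cortex, against 0.673, 0.6141 and 1.289 FPKM in Ctrl. Every mG-cKO library was above every Ctrl library for both genes. H2-Aa measured 1.802, 2.848 and 3.2 FPKM in mG-cKO cortex, against 1.009, 0.3419 and 1.085 FPKM in Ctrl. H2-Eb1 measured 1.893, 1.818 and 1.495 FPKM in mG-cKO cortex, against 0.4027, 0.3696 and 0.9637 FPKM in Ctrl. These groups did not overlap either, as was so for 9.81% of all genes tested in this direction, and H2-Eb1 was the lowest of the 4 genes in mG-cKO cortex by group mean.

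Cd74 rose by 1.45 ± 0.19 (limma, adjusted p = 0.00042) and H2-Eb1 by 0.81 ± 0.19 (limma, adjusted p = 0.043). H2-Ab1 had the largest difference of the 6 genes tested, 2.14 ± 0.54, and missed the threshold (limma, adjusted p = 0.061), as did H2-Aa with 1.003 ± 0.27 (limma, adjusted p = 0.081). Thus 2 of the 6 genes tested rose and none fell, where 1.35% of the 16420 genes tested rose and 0.84% fell, and the median difference was 0.91, with 0.065 over all genes tested. Ciita was under 0.5 FPKM on average at P21 and stayed out of the test. It measured 0.1987, 0.1442 and 0.3469 FPKM in mG-cKO cortex, against 0.293, 0.3545 and 0.3521 FPKM in Ctrl, and these groups overlapped. H2-DMa and H2-DMb1 overlapped as well, at 7.661 to 12.21 and 0.7312 to 0.9568 FPKM in mG-cKO cortex, against 5.294 to 9.656 and 0.4626 to 1.058 FPKM in Ctrl. The H2-Eb1 call was lost without any 1 of 5 libraries (Ctrl replicates 1 and 2 and all mG-cKO replicates), and H2-Ab1 passed with the mG-cKO and Ctrl groups fitted alone.

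In mG-cKD cortex the values lay near Ctrl. H2-Ab1 measured 1.257, 0.8097 and 1.302 FPKM and Cd74 2.737, 1.992 and 3.36 FPKM in mG-cKD cortex, and both overlapped Ctrl. No member passed for mG-cKD against Ctrl by limma, with 0 at an unadjusted p under 0.05, and 0% of all genes rose or fell. The 95% interval of the difference ran from -0.37 to 0.44 for Cd74 and from -0.96 to 1.36 for H2-Ab1. Against mG-cKD, mG-cKO cortex was higher for Cd74 by 1.41 ± 0.19 (limma, adjusted p = 0.00066), which was 1 of 6 genes, where 1.06% of all genes rose and 0.469% fell. H2-Ab1, H2-Aa and H2-Eb1 did not overlap between mG-cKO and mG-cKD either, as was so for 9.68% of all genes tested in this direction, with differences of 1.94 ± 0.54, 1.08 ± 0.27 and 0.57 ± 0.19 that did not pass (limma, adjusted p = 0.14, 0.075 and 0.31). With the mG-cKO and mG-cKD groups fitted alone, H2-Ab1 did pass (limma, adjusted p = 0.0011).

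**Figure D2:**
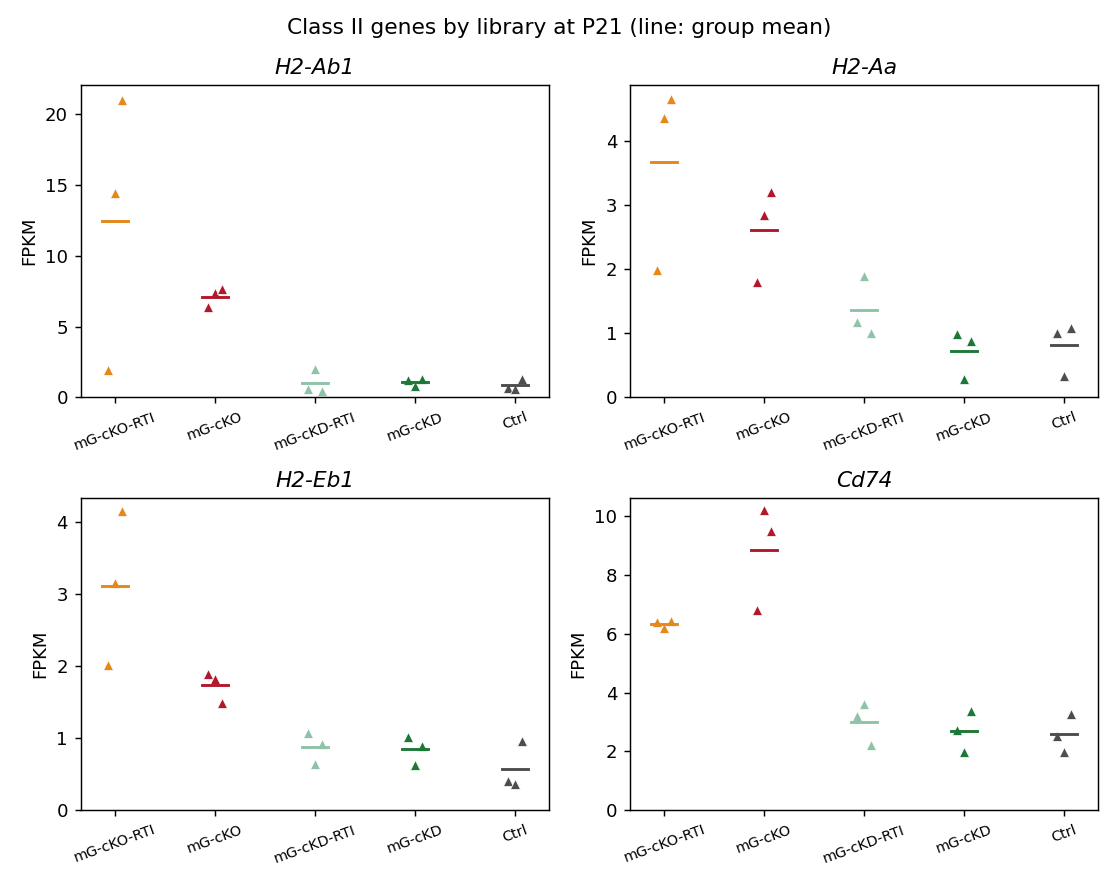
FPKM of H2-Ab1, H2-Aa, H2-Eb1 and Cd74 at P21 in the 5 groups, with 1 point per library and a line at the group mean. The mG-cKO libraries lie above all mG-cKD and Ctrl libraries for each gene, and mG-cKO-RTI replicate 1, at 1.91 FPKM of H2-Ab1, lies below the other mG-cKO-RTI libraries, at 14.46 and 21.03 FPKM.

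The mG-cKO-RTI libraries spread widely for the chain genes and hardly at all for Cd74. H2-Ab1 measured 1.91, 14.46 and 21.03 FPKM in mG-cKO-RTI cortex, which lies on both sides of the 6.377 to 7.627 FPKM of mG-cKO. H2-Aa measured 1.993, 4.357 and 4.657 FPKM in mG-cKO-RTI cortex and overlapped mG-cKO. Cd74 measured 6.409, 6.189 and 6.444 FPKM in mG-cKO-RTI cortex, and every library was below the lowest mG-cKO library. H2-Eb1 measured 2.022, 3.163 and 4.154 FPKM in mG-cKO-RTI cortex, and every library was above the highest mG-cKO library. Of all genes tested, 5.19% were lower and 4.65% higher in mG-cKO-RTI cortex without overlap. None of the differences passed for mG-cKO-RTI against mG-cKO (limma, 1 of 6 at an unadjusted p under 0.05), where 0% of all genes rose and 0.00609% fell. The 95% intervals were -0.81 to 0.0011 for Cd74, 0.14 to 0.97 for H2-Eb1, -0.24 to 0.91 for H2-Aa and -0.86 to 1.46 for H2-Ab1. The difference of H2-Ab1 was 0.30 with all libraries, 1.19 without mG-cKO-RTI replicate 1, -0.017 without replicate 2 and -0.27 without replicate 3.

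The mG-cKO-RTI libraries were set against the same Ctrl libraries as mG-cKO. H2-Eb1 differed by 1.37 ± 0.19 (limma, adjusted p = 0.0013), Cd74 by 1.05 ± 0.19 (limma, adjusted p = 0.0081), H2-Aa by 1.34 ± 0.27 (limma, adjusted p = 0.017) and H2-Ab1 by 2.44 ± 0.54 (limma, adjusted p = 0.031), so 4 of 6 genes rose, where 1.31% of all genes rose and 0.987% fell. Without mG-cKO-RTI replicate 2 or 3 or Ctrl replicate 2 the calls of H2-Ab1 and H2-Aa were lost, and without Ctrl replicate 1 or 3 that of H2-Ab1 was lost. Against mG-cKD-RTI, 2 of 6 genes rose in mG-cKO-RTI cortex, H2-Eb1 by 1.10 ± 0.19 (limma, adjusted p = 0.01) and Cd74 by 0.89 ± 0.19 (limma, adjusted p = 0.039), where 0.621% of all genes rose and 0.329% fell. The Cd74 call was lost under every alternative and without any 1 library of these groups (limma, adjusted p = 0.051 to 0.205), and the adjusted p of H2-Eb1 ranged from 0.0016 to 0.12 by limma. There no member passed without mG-cKO-RTI replicate 2 or 3 or mG-cKD-RTI replicate 2, 1 passed without mG-cKD-RTI replicate 1 or 3, and 3 passed without mG-cKO-RTI replicate 1 (H2-Ab1, H2-Aa and H2-Eb1).

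In mG-cKD-RTI cortex, the values of H2-Ab1 spread around those of mG-cKD. H2-Ab1 measured 0.6009, 2.007 and 0.4584 FPKM in mG-cKD-RTI cortex, against 1.257, 0.8097 and 1.302 FPKM in mG-cKD. No member passed for mG-cKD-RTI against mG-cKD by limma, with 0 at an unadjusted p under 0.05, and 0% of all genes rose or fell. H2-Aa did not overlap, at 1.178, 1.9 and 1.003 FPKM in mG-cKD-RTI cortex, against 0.9841, 0.2841 and 0.8856 FPKM in mG-cKD, with a difference of 0.47 ± 0.27, where 3.89% of all genes tested were higher without overlap. The RTI effect in mG-cKO minus that in mG-cKD was -0.52 ± 0.27 for Cd74, 0.53 ± 0.27 for H2-Eb1, 0.44 ± 0.76 for H2-Ab1 and -0.13 ± 0.38 for H2-Aa, and no member passed (limma, 0 at an unadjusted p under 0.05), where 0% of all genes did.

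**Figure D3:**
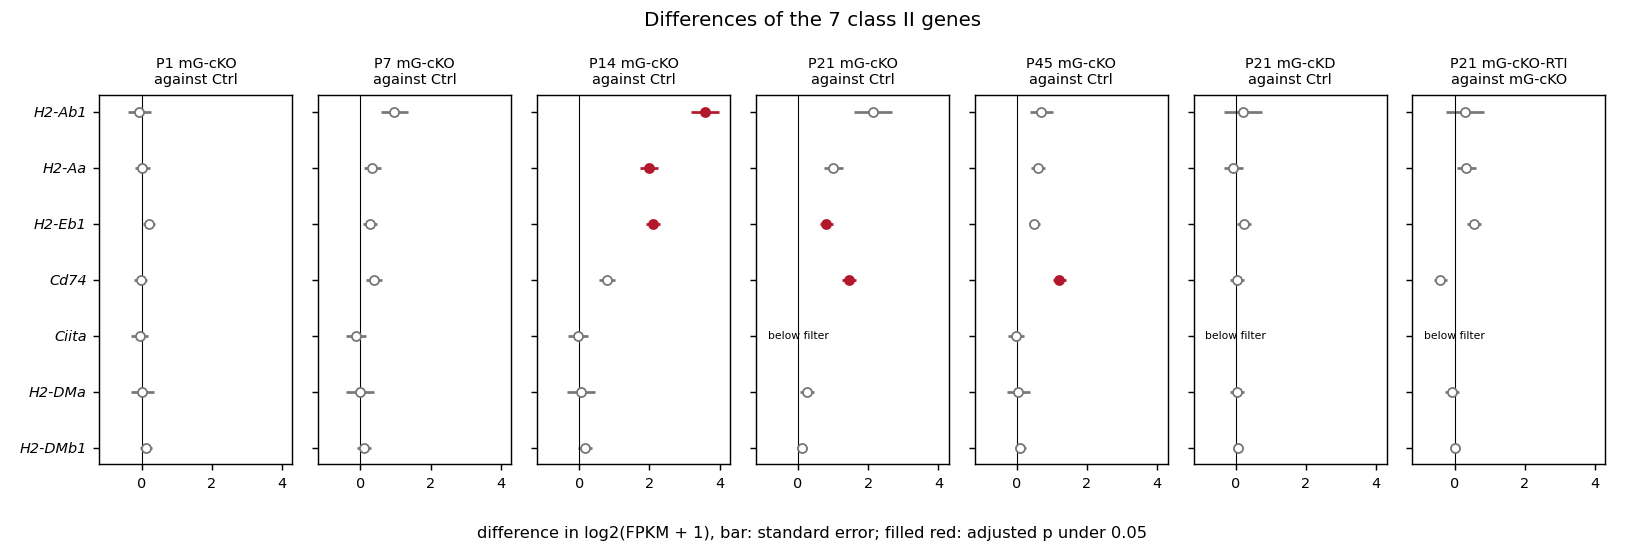
Differences in log2(FPKM + 1) of the 7 genes in 7 comparisons, with the standard error as a bar and filled red points where the adjusted p was under 0.05. The chain genes lead at P14 (H2-Ab1 at 3.58). In mG-cKO against Ctrl, Cd74 (1.45) and H2-Eb1 (0.81) pass at P21 and Cd74 (1.20) at P45. Ciita, H2-DMa and H2-DMb1 pass in none of the 7 comparisons.

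The levels of the A beta chain and the invariant chain were also set against each other. The ratio of H2-Ab1 FPKM to Cd74 FPKM within a library was 0.459, 0.344 and 0.573 in mG-cKO cortex at P1, against 0.5025, 0.369 and 0.7695 in Ctrl, which overlap. It was 3.85 and 4.31 in mG-cKO cortex at P14, against 0.292 and 0.184 in Ctrl. At P7 it was 0.990 and 1.70 in mG-cKO cortex, against 0.548 and 0.594 in Ctrl. At P7 and P14 the mG-cKO ratios lie above those of Ctrl of the same age without overlap. At P45 the ratio was 0.209, 0.234 and 0.613 in mG-cKO cortex, against 0.366, 0.349 and 0.521 in Ctrl, which overlap. At P21 it was 0.937, 0.721 and 0.803 in mG-cKO cortex, against 0.268, 0.308 and 0.393 in Ctrl, with no overlap, and 0.298, 2.34 and 3.26 in mG-cKO-RTI cortex. The ratio of the paired chains, H2-Ab1 to H2-Aa, was 3.82 and 4.06 in mG-cKO cortex at P14, against 2.67 and 0.872 in Ctrl, and 3.54, 2.59 and 2.38 in mG-cKO cortex at P21, against 0.667, 1.80 and 1.19 in Ctrl. At P7 this ratio was 3.255 and 4.898 in mG-cKO cortex, against 3.005 and 2.863 in Ctrl. At P45 it was 1.035, 0.7552 and 2.242 in mG-cKO cortex, against 0.9731, 2.433 and 1.087 in Ctrl, which overlap. In mG-cKO-RTI cortex it was 0.9584, 3.319 and 4.516. The ratios were computed after the values were seen and carry no test.

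**Figure D4:**
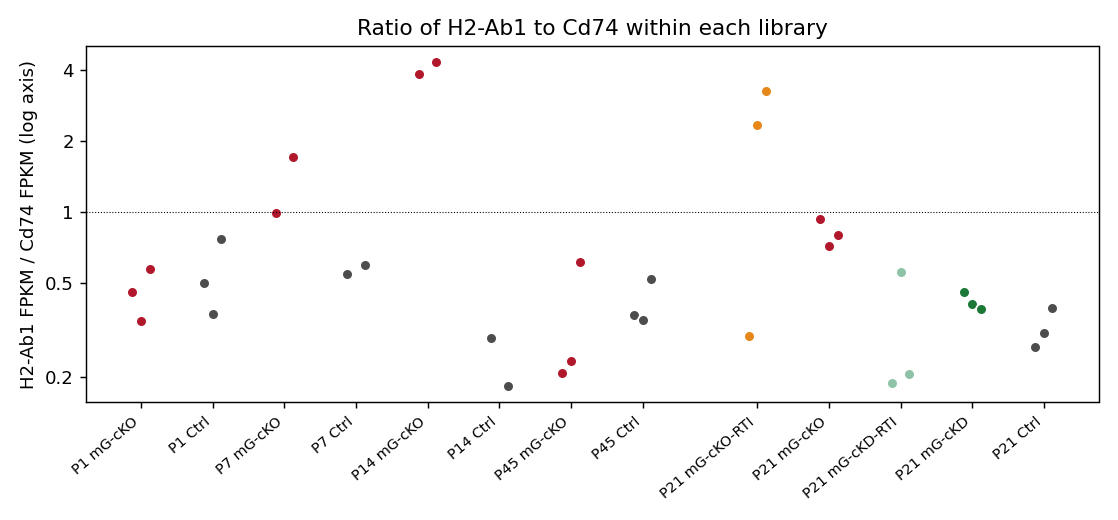
Ratio of H2-Ab1 FPKM to Cd74 FPKM in each library of the age series (left) and at P21 (right), on a log axis, with a dotted line at equal FPKM. Only the 2 P14 mG-cKO libraries, 1 P7 mG-cKO library and mG-cKO-RTI replicates 2 and 3 lie above 1.

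In the CT and VPA table these genes were low in both groups. H2-Ab1 measured 0.4003, 0.5039 and 0.2961 FPKM in VPA cortex, against 0.3158, 0.3973 and 0.06265 FPKM in CT. Cd74 measured 0.5112, 0.507 and 0.6705 FPKM in VPA cortex, against 0.6285, 0.615 and 0.4728 FPKM in CT. H2-DMa measured 3.274, 4.792 and 6.749 FPKM in VPA cortex, against 2.16, 3.479 and 3.562 FPKM in CT. The groups overlapped for these 3 genes. H2-Eb1 measured 0.6641, 0.3251 and 0.3652 FPKM in VPA cortex, against 0.2495, 0.3051 and 0.2165 FPKM in CT, and H2-DMb1 measured 0.5736, 0.4814 and 1.058 FPKM in VPA cortex, against 0.1492, 0.4379 and 0.2072 FPKM in CT. Every VPA library was above every CT library for H2-Eb1 and H2-DMb1, which were too low on average for testing; of the 11264 genes tested, 21.5% were higher in VPA cortex without overlap. Only Cd74 and H2-DMa had a mean of 0.5 FPKM, and neither passed, with differences of -0.0086 ± 0.15 and 0.52 ± 0.28 (limma, adjusted p = 0.98 and 0.30; 0 of 2 at an unadjusted p under 0.05), where the median of all genes was 0.12 and 0% of all genes rose or fell. Without a filter the other 5 genes differed by 0.14 to 0.42 and did not pass either. These values rest on 3.1 to 23.5 reads for H2-Ab1 and 13.1 to 15.5 reads for Cd74 in the 5 whole-read libraries. VPA replicate 3 is the only library of the other kind here, with an FPKM sum of 150149, against 66557 to 72783 in the rest. It had the highest VPA value of H2-DMa, H2-DMb1 and Cd74 and the lowest of H2-Ab1. In that library VPA and library kind cannot be told apart.

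None of the 5 other class II genes with a row in the age series or at P21 reached the mean needed for testing. H2-Eb2, a further beta chain, was listed at 0 in every P21 library and stayed under 0.5 FPKM in every library of the age series, as did H2-Ob, a chain of the H2-DM inhibitor. The alpha chain row of the E molecule, H2-Ea at P21 and H2-Ea-ps in the age series, was listed at 0 in every library. Of the 7 promoter factors (RFX and NF-Y subunits and Creb1), 0 passed in mG-cKO against Ctrl at P14, P21 or P45, and their summed FPKM at P14 was 50.56 to 52.36 in mG-cKO cortex, against 51.16 to 51.23 in Ctrl. Of the genes for peptide processing and costimulation, such as endosomal proteases, 0 of 7 tested passed at P14 and at P45 and 0 of 9 at P21. Of the interferon gamma pathway, 0 of 9 tested passed at P14 and at P45. Interferon gamma itself, Ifng, was at 0.0398 FPKM or less in every library of the 3 tables. Cxcl10, an interferon-induced chemokine whose mean in the age series was too low for testing, measured 0.2112 and 0.2398 FPKM in mG-cKO cortex at P14, against 0.04268 and 0.04305 FPKM in Ctrl.

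Markers of the cells known to use class II were read beside these results. At P14 the summed FPKM of 10 microglia markers was 110.0 to 112.0 in mG-cKO cortex, against 103.5 to 112.0 in Ctrl, and 0 of 10 passed. That of 8 border macrophage markers was 14.04 to 14.09 in mG-cKO cortex, against 10.4 to 11.27 in Ctrl, and 0 of 7 tested passed. That of 8 dendritic cell markers was 3.521 to 3.825 in mG-cKO cortex, against 3.503 to 3.612 in Ctrl, and Xcr1, Clec9a, Cd209a and Ccr7 were under 0.5 FPKM in every library of both tables. Of 7 B cell and 9 T and NK cell markers, 6 and 7 were under 0.5 FPKM in every library of the age series, Ms4a1, Cd3e and Cd8a among them, and the B cell sum at P14 was 6.456 to 7.488 in mG-cKO cortex, against 5.83 to 6.174 in Ctrl. The T and NK sum at P14 was 3.786 to 4.676 in mG-cKO cortex, against 1.862 to 2.687 in Ctrl. The sum of 12 disease-associated microglia markers at P14 was 655.2 to 661.4 in mG-cKO cortex, against 575.6 to 603.9 in Ctrl, and that of 6 meningeal markers was 61.19 to 61.38 in mG-cKO cortex, against 50.66 to 51.91 in Ctrl. The sum of 5 astrocyte markers was 227.9 to 238.2 in mG-cKO cortex at P14, against 188.0 to 195.6 in Ctrl. No marker of these lists passed at P14. The sums of border macrophage, B cell, T and NK cell, disease-associated microglia, meningeal and astrocyte markers were thus above Ctrl beside the chain genes. So was that of the peptide processing and costimulation genes, at 208.6 to 217.1 FPKM in mG-cKO cortex, against 197.3 to 204.6 FPKM in Ctrl. The sums of excitatory neuron, inhibitory neuron, choroid plexus and oligodendrocyte markers were below Ctrl without overlap at P14. A sum follows its most abundant markers and is no measure of cell number. Most of the B cell sum was Ighm, at 6.682 and 5.461 FPKM in mG-cKO cortex, against 5.172 and 5.346 FPKM in Ctrl. The part of these cells and genes in the result was not tested.

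At P21 the microglia sum was 96.63 to 101.7 in mG-cKO cortex, against 104.7 to 113.7 in Ctrl, the border macrophage sum was 7.919 to 8.957 in mG-cKO cortex, against 6.332 to 8.013 in Ctrl, and the dendritic sum was 4.362 to 5.271 in mG-cKO cortex, against 3.967 to 5.062 in Ctrl. None of the tested members of these 3 lists passed. The B cell sum at P21 was 4.743 to 8.028 in mG-cKO cortex, against 8.626 to 12.12 in Ctrl. The sums of disease-associated microglia, T and NK cell and meningeal markers overlapped between mG-cKO and Ctrl at P21 and at P45. At P45 the microglia sum was 75.44 to 107.8 in mG-cKO cortex, against 80.54 to 115.1 in Ctrl, and the border macrophage sum was 7.046 to 11.1 in mG-cKO cortex, against 5.507 to 8.483 in Ctrl. At P45, 1 of 2 dendritic markers tested passed, Flt3, which fell by 0.80 ± 0.12 in mG-cKO cortex (limma, adjusted p = 0.0019). Itgax, on the same list and too low for testing, went the other way on average. It measured 0.2199, 0.0837 and 0.2919 FPKM in mG-cKO cortex at P45, against 0.03541, 0.04768 and 0.1287 FPKM in Ctrl, which overlap. Genes of another cell type moved strongly with the genotype: the sum of 5 oligodendrocyte markers was 136.3 to 153.7 FPKM in mG-cKO cortex at P14, against 558.0 to 621.6 FPKM in Ctrl, and 244.7 to 419.4 FPKM at P21, against 2442 to 3910 FPKM in Ctrl. The sum of 5 astrocyte markers at P21 was 277.8 to 315.3 FPKM in mG-cKO cortex, against 215.1 to 240.4 FPKM in Ctrl, and 1 of 5 passed. That was Gfap, an intermediate filament of astrocytes that is raised in reactive ones, which rose by 1.24 ± 0.21 (limma, adjusted p = 0.0032), with a mean of 122.1 FPKM in mG-cKO cortex, against 50.72 FPKM in Ctrl. Gfap also rose in mG-cKO against mG-cKD by 1.35, and in mG-cKO-RTI by 0.97 against Ctrl and by 1.10 against mG-cKD-RTI (limma, adjusted p = 0.0020, 0.023 and 0.018). At P45 1 of 5 passed, the water channel Aqp4, which rose by 0.56 ± 0.11 (limma, adjusted p = 0.016), with a mean of 32.41 FPKM in mG-cKO cortex, against 21.65 FPKM in Ctrl. The part of these cells in the class II values was not tested.

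The choroid plexus marker Ttr varied between libraries at P21. It measured 8.277, 508.5 and 257.4 FPKM in mG-cKO-RTI replicates 1, 2 and 3, where H2-Ab1 measured 1.91, 14.46 and 21.03 FPKM, so that replicate 1 was the lowest for both. In mG-cKO cortex Ttr measured 57.86, 2.983 and 77.32 FPKM, against 55.69, 1.441 and 69.27 FPKM in Ctrl, while H2-Ab1 stayed between 6.377 and 7.627 FPKM in mG-cKO cortex. In mG-cKD-RTI replicate 3 Ttr was at 278.6 FPKM with H2-Ab1 at 0.4584 FPKM, and at P14 the library with high Ttr, 241.1 FPKM, was Ctrl replicate 2, with H2-Ab1 at 0.3159 FPKM. In mG-cKO-RTI cortex, replicate 1 also stood apart by Ighm, an immunoglobulin heavy chain gene, at 21.38 FPKM, against 4.106 and 4.396 FPKM in replicates 2 and 3. The part of these tissues in the class II values was not tested.

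Genes around H2-Ab1 were read as well. Within 250 kilobases of it lie 45 annotated genes, of which 11 besides the members were tested in the age series and 13 at P21. None of them passed in mG-cKO against Ctrl at P14, P21 or P45, and their median difference was 0.014 at P14 and 0.15 at P21, with -0.0058 and 0.065 over all genes tested.

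The genes whose pattern over libraries was most like the mean log2(FPKM + 1) of H2-Ab1, H2-Aa, H2-Eb1 and Cd74 were looked up among all genes tested. In the 20 libraries of the age series these were Ky (Pearson's r = 0.90), Gbp3 (0.89), Cartpt (0.89), Cox6a2 (0.88) and Apoc1 (0.86). In the 15 libraries at P21 they were A2m (0.96), Pcdha1 (0.96), Pcdha8 (0.95), Apoc1 (0.95) and Stag3 (0.94). Apoc1, an apolipoprotein gene, was on both lists, and averaged 6.08 FPKM in mG-cKO cortex at P14, against 0.822 FPKM in Ctrl, and 6.31 FPKM in mG-cKO cortex at P21, against 0.547 FPKM in Ctrl. Gbp3, an interferon-induced GTPase, averaged 2.67 FPKM in mG-cKO cortex at P14, against 1.34 FPKM in Ctrl. The libraries share genotype, age and library kind, so these correlations are descriptions with no p, and none of the listed genes lies on chromosome 17.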

How the data were processed

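RNA of mouse cortex was extracted with TRIzol, and libraries were prepared by the NEB Next Ultra RNA kit, as the labels' protocols state. Tools named in the submitters' processing notes, without roles, are STAR 2.5.3a, featureCounts 2.0.4 and Trim Galore 0.6.5, with the build mm10. The authors deposited FPKM values per gene. Of 48 labelled samples 41 were analysed, 4 (mG-cKO and Ctrl replicate 3 at P7 and at P14) were not analysed here, and 3 further sample columns, titled NPC, were not used. FPKM times exon length gave whole reads within 0.05 reads for 99.1% to 99.4% of low values in 21 libraries, and for 24.7% at most in the other 20.

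The 3 tables got a limma fit each (limma 3.58.1, statmod 1.5.0, R 4.3.3; variance trend, robust estimation) on log2(FPKM + 1), with 1 mean per group. Genes averaging 0.5 FPKM or more over a table's libraries were kept, which left 19733 (age series), 16420 (P21) and 11264 (CT and VPA). This mean left 7, 6 and 2 of the 7 members, and over the Ctrl libraries of the age series alone H2-Aa and H2-DMb1 would not have passed it. The share of all genes tested whose groups do not overlap was counted beside the members without overlap. There were 17 comparisons, with Benjamini-Hochberg adjustment within each. The fit was tested on simulated data. Plots were drawn with matplotlib 3.10.9 and tables made with pandas 2.3.3 (numpy 2.4.6, Python 3.11.15). The alternatives were a pseudocount of 0.1, no filter, a common median, the compared groups alone, the replicate number as a block, whole-read libraries alone and leaving out each library.

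Members, gene lists and tests were chosen with earlier results of these data known. Named were the 7 members in every comparison, members of 18 further lists that passed (at most 4 per list and comparison) or were at 0, and the 5 genes per table most correlated with 4 members, without unnamed genes. Values of Cxcl10, Ttr, Ighm and Ifng were added after they were seen, and list members that passed between ages or for oligodendrocytes and neurons are not given singly. The P21 count for the interferon gamma list is not reported here. The 34 listed genes with no row in the CT and VPA table are not used there. Same-numbered libraries counted as pairs if, with 3 numbers, each correlation of their deviations from group means exceeded 0.1. The P1 genotypes met this (0.782, 0.71 and 0.942), as did the P45 genotypes (0.871, 0.887 and 0.969), mG-cKO against Ctrl at P21 (0.157, 0.125 and 0.698), mG-cKO against mG-cKD, and both age comparisons of P45 with P1. The labels state no pairing, and in the age series number 3 is also the other kind of library.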

Additional observations from a re-analysis of the deposited data

Results flagged for a closer look

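The mG-cKO effect on 3 chain genes differed between P14 and P1 by a test of the difference itself. It was larger at P14 by 3.64 for H2-Ab1, by 1.97 for H2-Aa and by 1.90 for H2-Eb1, in log2(FPKM + 1), and in each case both mG-cKO libraries at P14 were above both Ctrl libraries while the P1 genotypes overlapped. These calls depended on the settings and on single P14 libraries: with a pseudocount of 0.1 none of the 3 passed. Leaving out a library gave differences of 3.49 to 3.79 for H2-Ab1 and 1.74 to 2.05 for H2-Eb1, and the calls lost that way are given above. H2-Aa, which met the filter only with the mG-cKO libraries, also did not pass with a common median or without any 1 P1 library. No group here holds 4 or more libraries, so single libraries were not tested for standing apart.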

How the results depend on the processing

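The 3 members called at P14 stayed called under each alternative, with log2 differences of 3.43 to 3.73 for H2-Ab1, 1.93 to 2.07 for H2-Aa and 1.96 to 2.27 for H2-Eb1 over the fits that left out a library (the lone library then is assumed to vary like other groups). Of these 3, H2-Aa met the filter only with the mG-cKO libraries, where it is high. No called difference changed sign.

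Counts of members called moved as follows. Comparing the groups alone gave 0 at P45, 2 for P45 against P1 in mG-cKO and 1 in Ctrl, 2 for mG-cKO against mG-cKD, 2 for mG-cKO-RTI against Ctrl and 0 against mG-cKD-RTI. The replicate block gave 3 at P45, 5 for P45 against P1 in Ctrl, 3 for the P45 minus P14 effect and 1 for mG-cKO-RTI against mG-cKD-RTI; where the numbers met the pairing rule it changed no other count by over 1.5 times, and at P14, with 2 numbers that share only a label, it gave 4. Whole-read libraries alone gave 1 at P7, 2 at P45, 6 for P45 against P1 in Ctrl and 3 for P45 minus P14. No filter gave 1 for P45 minus P14, 1 for mG-cKO against Ctrl at P21, 2 for mG-cKO-RTI against Ctrl and 1 against mG-cKD-RTI. A common median gave 1 for P45 against P1 in Ctrl, 1 for mG-cKO against Ctrl at P21 and 1 for mG-cKO-RTI against mG-cKD-RTI, and a pseudocount of 0.1 gave 0 for P14 minus P1. Without P45 replicates 1 and 2, an alternative chosen after seeing the data, 2 passed at P45, 5 for P45 against P1 in Ctrl and 2 for P45 minus P14. The cause of these changes was not tested. These counts stand without the share of all genes under the same alternative, so they are not read as particular to the members. The range of the number of all genes called is given below.

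Leaving out a library gave 1 to 2 members at P45, 1 to 2 for P45 against P1 in Ctrl, 0 to 2 for P14 minus P1 and for P45 minus P14, 1 to 2 for mG-cKO against Ctrl at P21, 2 to 4 for mG-cKO-RTI against Ctrl and 0 to 3 against mG-cKD-RTI. The H2-Ab1 difference of mG-cKO-RTI against mG-cKO ran from -0.27 to 1.19.

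Counts over all genes moved more. The number called, with its range over alternatives, was 28 (7 to 181) at P1, 32 (11 to 403) at P7, 68 (36 to 1166) at P14, 228 (0 to 2740) at P45, 24 (3 to 419) for P14 minus P1, 2 (0 to 458) for P45 minus P14, 6708 (2814 to 15194) and 7221 (3353 to 15341) for P45 against P1 in mG-cKO and Ctrl, 360 (245 to 400) for mG-cKO against Ctrl at P21, 251 (156 to 293) for mG-cKO against mG-cKD, 377 (144 to 502) and 156 (64 to 168) for mG-cKO-RTI against Ctrl and mG-cKD-RTI, and 0 (0 to 302) for VPA against CT. Depth limits the chain genes at P1, where H2-Ab1 rested on as few as 6.3 reads.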
